A study of Mus musculus with 29 samples.

Results

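Macrophages grown from mouse bone marrow were given IL-4 together with IL-10, and these cells were compared with macrophages given IL-10 without IL-4. The comparison uses 6 of the 29 arrays of the study, chosen by their titles: 3 arrays of IL-4+IL-10 macrophages and 3 arrays of IL-10 macrophages, which share the replicate numbers 1 to 3. Cells of C57BL/6 mice aged 8 weeks were kept for 7 days in Teflon bags with CSF-1 at 10 ng/ml, the growth factor that makes macrophages of bone marrow precursors. They then received 10 ng/ml of each named cytokine for 24 h, with CSF-1 still present in every group. The other arrays hold macrophages with IL-4 alone (5), IL-4+IL-6 (5), IL-6 alone (5) and CSF-1 without a further cytokine (8, called unstimulated). The labels do not say whether the arrays of a group came from separate mice or separate cultures, so the p-values measure the spread between arrays, which may be technical, and the number of arrays limits the precision.

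IL-4 signals through a receptor of the chains Il4ra and Il2rg, or Il4ra and Il13ra1, and the kinases bound to it phosphorylate the transcription factor STAT6. In mouse macrophages this switches on a programme called alternative activation, with arginase 1, resistin-like alpha and chitinase-like proteins among its best known products. IL-10 signals through Il10ra and Il10rb to STAT3, which raises the feedback inhibitor Socs3 and restrains the output of inflammatory genes. Adding IL-4 to IL-10 therefore sets a STAT6 stimulus beside a STAT3 stimulus.

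STAT proteins bind DNA at a TTC and a GAA a few bases apart, and STAT6 is known for accepting a 4-base spacer, TTCNNNNGAA, beside the 3-base form TTCNNNGAA. Promoter windows of 300 bases (250 before and 50 after the gene's start, RefSeq, mouse build GRCm38.p6) were searched for both motifs, each of which reads the same on both strands, and each form was counted by itself, whether or not it overlapped the other. Windows were searched for 7 of the 12 largest increases and 8 of the 12 largest decreases of the comparison. Arg1, Ccl24, Slc7a2, Socs2 and Cdh1 among the increases, and Slc40a1, Nfkbiz, Clec4n and Ndrg1 among the decreases, were not searched here. The windows below belong to the 3 searched genes that held the 4-base form, and the motif stands in capitals. Retnla and Pdcd1lg2 were much higher in IL-4+IL-10 macrophages, and Ms4a6b was much lower. The Retnla window is chr16:48842359-48842658 (plus strand, motif from position -145 relative to the start), the Pdcd1lg2 window is chr19:29410669-29410968 (plus strand, motif from -82), and the Ms4a6b window is chr19:11518309-11518608 (plus strand, motif from 9).
Retnla: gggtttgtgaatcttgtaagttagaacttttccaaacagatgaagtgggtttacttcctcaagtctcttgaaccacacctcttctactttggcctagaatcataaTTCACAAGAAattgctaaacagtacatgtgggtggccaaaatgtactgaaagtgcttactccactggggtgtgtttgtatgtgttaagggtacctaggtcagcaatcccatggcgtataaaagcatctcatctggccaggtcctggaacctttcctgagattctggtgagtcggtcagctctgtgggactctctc
Pdcd1lg2: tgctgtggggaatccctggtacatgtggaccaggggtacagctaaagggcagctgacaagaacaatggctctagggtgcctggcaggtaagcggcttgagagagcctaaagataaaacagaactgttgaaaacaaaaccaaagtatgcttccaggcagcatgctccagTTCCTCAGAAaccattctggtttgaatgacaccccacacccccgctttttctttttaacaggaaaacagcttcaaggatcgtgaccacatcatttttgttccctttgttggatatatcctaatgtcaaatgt
Ms4a6b: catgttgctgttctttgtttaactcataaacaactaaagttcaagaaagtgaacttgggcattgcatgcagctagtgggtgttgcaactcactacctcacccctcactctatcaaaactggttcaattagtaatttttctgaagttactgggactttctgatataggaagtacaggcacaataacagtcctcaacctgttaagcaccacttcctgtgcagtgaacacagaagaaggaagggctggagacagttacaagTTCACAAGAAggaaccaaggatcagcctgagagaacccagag
The motif was TTCACAAGAA in both Retnla and Ms4a6b and TTCCTCAGAA in Pdcd1lg2, so the same 10 letters stood before a gene that rose and inside the first bases of a gene that fell. Over all 32851 windows of this length, 6.95% held the 4-base form and 8.3% the 3-base form. Among genes called higher by a log2 difference of at least 1, 19 of the 174 with a window (10.9%) held the 4-base form, against 12 of 193 (6.22%) for genes called lower by at least 1 and 149 of 2396 (6.22%) for genes that were not called. The 3-base form was in 12 of 174 genes called higher (6.9%) and in 20 of 193 genes called lower (10.4%). These shares describe letters in a short window and were not tested.

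IL-4 changed gene levels broadly in the presence of IL-10. A level is a deposited log2 value of a gene's probe set, and a difference is the IL-4+IL-10 mean minus the IL-10 mean. Of 7154 genes tested, 4284 (59.9%) passed an adjusted p of 0.05, with 2277 higher (31.8%) and 2007 lower (28.1%) in IL-4+IL-10 macrophages. Most of these differences were small: the median absolute difference of all genes tested was 0.229 and the median difference was 0.02, and 469 genes (6.56%) were called with a difference of at least 1, 219 upward (3.06%) and 250 downward (3.49%). Counts of called genes on any list are therefore to be read against shares of 31.8% and 28.1%. The 3 arrays of each group did not overlap for 2390 genes higher (33.4%) and 2092 genes lower (29.2%) in IL-4+IL-10 macrophages, and the differences of all 3 replicate numbers had 1 sign for 5813 genes (81.3%). Leaving out each of the 6 arrays, or each replicate number with both its arrays, gave between 3665 and 4143 called genes.

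The largest increases included genes of alternative activation. Arginase 1 (Arg1), which splits arginine into ornithine and urea, read 13.93, 13.75 and 13.86 in IL-4+IL-10 macrophages and 3.87, 3.54 and 3.79 in IL-10 macrophages. The difference was 10.11 ± 0.109 (SE, adjusted p = 1.92e-31), the largest increase among the genes tested. Its IL-10 levels lay under the median of all values on the arrays (6.99), where background can set much of the reading. The difference is therefore given on the log2 scale and not as a fold. This holds also for other genes with a group mean under that median. Retnla, a secreted resistin-like protein and a classic IL-4 target, read 14.56, 14.73 and 14.76 in IL-4+IL-10 macrophages against 5.77, 6.08 and 6.24 in IL-10 macrophages. The IL-4+IL-10 levels of Retnla came close to the highest value on any array (15.13), which limits how well differences at the top can be read. Rnase2a, an eosinophil-type ribonuclease, read 12.32, 12.81 and 12.86 in IL-4+IL-10 macrophages against 3.86, 3.99 and 4.05 in IL-10 macrophages, with a difference of 8.69.

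Other increases took in a chemokine, lectins and a checkpoint ligand. Ccl24, the eosinophil attractant eotaxin-2, read 13.06, 13.58 and 13.70 in IL-4+IL-10 macrophages and 6.38, 6.68 and 6.30 in IL-10 macrophages. Mgl2, a galactose-binding C-type lectin, differed by 6.40 and Chil4, a chitinase-like protein, by 5.54. Pdcd1lg2, which encodes PD-L2, a ligand of the T-cell inhibitory receptor PD-1, read 10.72, 10.95 and 11.06 in IL-4+IL-10 macrophages against 5.28, 5.60 and 5.24 in IL-10 macrophages. Ddx4, an RNA helicase known from germ cells, also stood among the 12 largest increases, with 10.23, 10.11 and 10.44 in IL-4+IL-10 macrophages and 3.68, 3.73 and 3.70 in IL-10 macrophages. For each of the 12, all IL-4+IL-10 arrays lay far above all IL-10 arrays. Genes of close relatives, such as Chil4 and Chil3 or Ear3 and Rnase2a, may share probe signal, so their values are not independent.

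**Figure D1:**
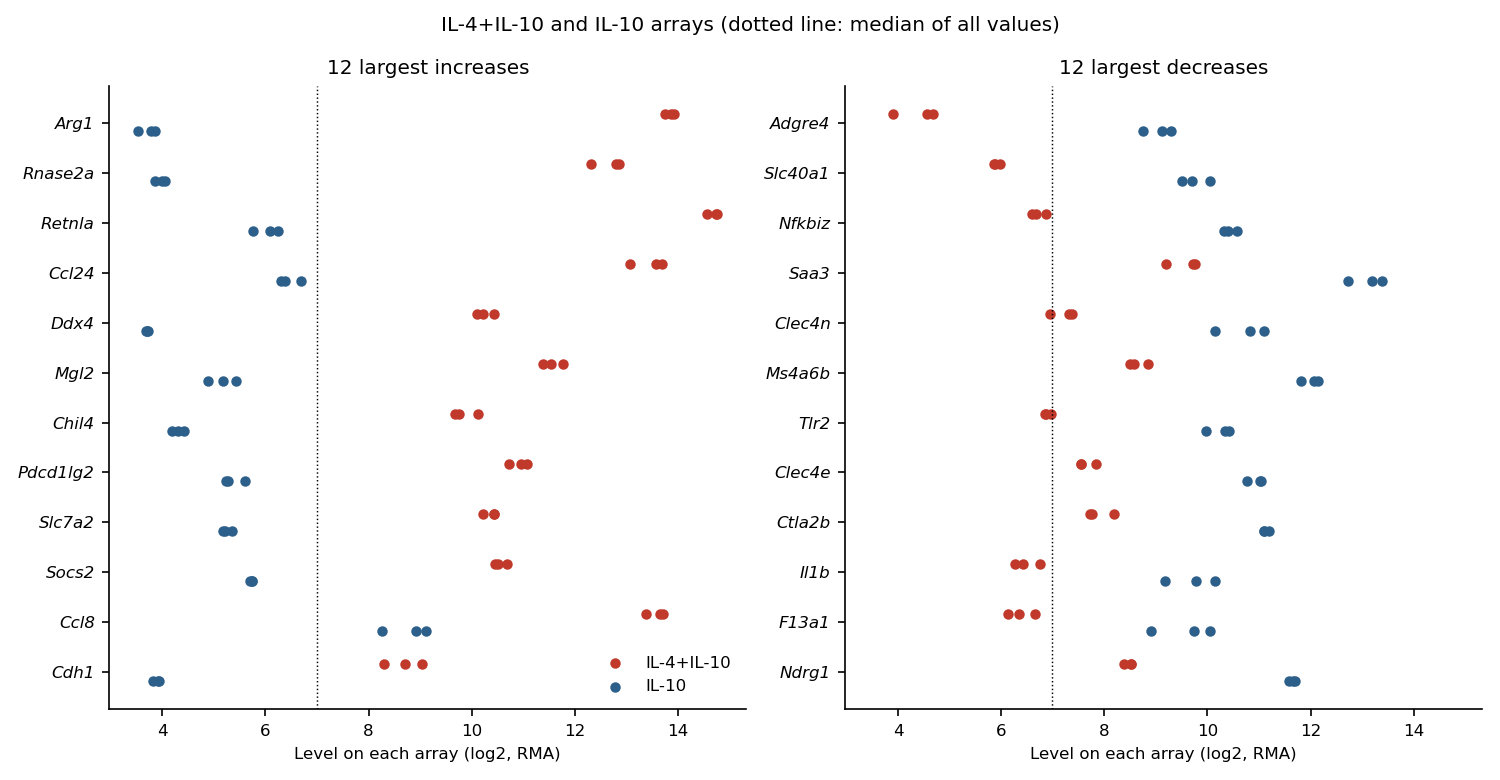
Levels (log2, RMA) of the 12 largest increases (left) and the 12 largest decreases (right) on each of the 3 IL-4+IL-10 arrays (red, upper row of each gene) and the 3 IL-10 arrays (blue, lower row). The dotted line is the median of all values, 6.99. No gene's groups overlap, and of the 12 increases only Ccl8 lies above the dotted line in IL-10 macrophages.

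Of the 35 genes tested on the alternative activation list, 34 rose and 1 fell, against 31.8% of all genes higher and 28.1% lower. The median difference was 2.94 against 0.02 over all genes tested. The list gathers genes known to respond to IL-4, so its direction is no independent evidence. Fibronectin (Fn1), a matrix protein, rose 14.2-fold, with 12.92, 13.13 and 13.11 in IL-4+IL-10 macrophages and 9.36, 9.15 and 9.18 in IL-10 macrophages. Among its transcription factors, Irf4 differed by 3.24 and Batf3 rose 7.05-fold, and both are known to act in myeloid cells. Of the lectins, Cd209e differed by 4.11 and Cd209a by 1.60. The gene that fell was Il1rn, the IL-1 receptor antagonist, which read 7.68, 7.83 and 7.21 in IL-4+IL-10 macrophages against 8.85, 8.53 and 8.48 in IL-10 macrophages (2.07-fold lower). All 3 of its probe sets were lower.

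Among genes of arginine and polyamine metabolism, 10 of 18 tested were higher and 5 lower, with a median difference of 0.20. By at least 1, 3 rose, Arg1 among them, and 2 fell. Over all genes tested, 31.8% were higher and 28.1% lower. Slc7a2, a transporter that brings in cationic amino acids such as arginine, read 10.44, 10.22 and 10.44 in IL-4+IL-10 macrophages and 5.35, 5.22 and 5.17 in IL-10 macrophages. Spermidine synthase (Srm) rose 2.54-fold, with a difference of 1.35 ± 0.113. The exporter Slc7a7 was 2.77-fold lower and spermine oxidase (Smox), which turns spermine back into spermidine, was 2.34-fold lower. The second arginase gene, Arg2, a mitochondrial enzyme, differed by -0.85 (adjusted p = 0.000725), so the arginase genes moved in opposite directions.

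The largest decreases were surface receptors, an iron exporter and inflammatory products. Adgre4, an adhesion G-protein-coupled receptor of myeloid cells, read 4.68, 4.56 and 3.89 in IL-4+IL-10 macrophages and 8.75, 9.29 and 9.11 in IL-10 macrophages, a difference of -4.67 ± 0.262. Ferroportin (Slc40a1), which exports iron, read 5.97, 5.87 and 5.87 in IL-4+IL-10 macrophages against 9.51, 10.05 and 9.71 in IL-10 macrophages. Saa3, an acute-phase serum amyloid A protein made by macrophages, was 11.6-fold lower, with 9.20, 9.76 and 9.72 in IL-4+IL-10 macrophages and 12.73, 13.39 and 13.19 in IL-10 macrophages. Its level stayed above the median of all values in both groups. Ms4a6b, a membrane-spanning protein of the MS4A family, read 8.49, 8.84 and 8.58 in IL-4+IL-10 macrophages against 11.80, 12.15 and 12.06 in IL-10 macrophages (10.3-fold lower). Ctla2b, which resembles the propeptide of a cysteine protease, was 9.4-fold lower, and Ndrg1, a gene known to respond to hypoxia, was 8.98-fold lower. F13a1, the A chain of coagulation factor XIII, read 6.14, 6.34 and 6.65 in IL-4+IL-10 macrophages and 8.90, 9.74 and 10.05 in IL-10 macrophages.

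Genes listed as STAT3-responsive did not move as a block when IL-4 was added. Of 36 genes tested on the STAT3-responsive list, 19 fell and 9 rose, against 28.1% of all genes lower and 31.8% higher. The median difference was -0.33. Socs3, the feedback inhibitor that STAT3 induces, read 10.06, 9.94 and 10.09 in IL-4+IL-10 macrophages and 11.82, 12.22 and 12.36 in IL-10 macrophages. It was 4.3-fold lower (difference -2.10 ± 0.154, adjusted p = 3.5e-12) and its 3 probe sets differed by -2.08, -2.10 and -2.08. Stat3 itself was 1.28-fold lower. Against this, Il6st, the shared signalling chain gp130 of the IL-6 family receptors, rose 3.8-fold, and Cd163, the receptor for haptoglobin with haemoglobin, differed by 2.43, with 6.75, 7.10 and 7.16 in IL-4+IL-10 macrophages and 4.59, 4.64 and 4.50 in IL-10 macrophages. In IL-10 and unstimulated macrophages Il6st averaged 9.60 and 9.59, and Cd163 4.58 and 4.87. Socs3 averaged 12.13 in IL-10 and 6.49 in unstimulated macrophages, and Saa3 13.10 and 8.68. The list therefore mixes genes that stood higher with IL-10 in these cells and genes that did not. The acute-phase gene Hp, haptoglobin, fell, with a difference of -1.88. The inhibitor Timp1 rose 3.4-fold.

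The receptors and signalling proteins of the cytokines showed 22 genes lower and 14 higher of 45 tested, against 28.1% of all genes lower and 31.8% higher. The IL-4 receptor chain Il4ra read 9.65, 10.10 and 9.80 in IL-4+IL-10 macrophages and 10.89, 11.22 and 11.00 in IL-10 macrophages, 2.27-fold lower (difference -1.19 ± 0.141). Il13ra1, the partner chain that also binds IL-13, read 5.08, 4.77 and 4.96 in IL-4+IL-10 macrophages against 6.95, 7.43 and 7.55 in IL-10 macrophages. The TGF-beta receptor Tgfbr2 was 3.02-fold lower. Feedback inhibitors of other cytokine receptors went the opposite way to Socs3. Socs2 read 10.52, 10.44 and 10.68 in IL-4+IL-10 macrophages and 5.74, 5.71 and 5.74 in IL-10 macrophages, Cish differed by 2.94 and Socs1 by 2.69. Stat6, the transcription factor of IL-4, differed by -0.16 ± 0.0548 (adjusted p = 0.0129), a call that was lost when only the 6 arrays of the comparison were fitted (adjusted p = 0.07062). It was also lost without IL-4+IL-10 replicate 1, IL-4+IL-10 replicate 3 or IL-10 replicate 2, with adjusted p-values of 0.05527, 0.06619 and 0.06582.

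Among chemokines and their receptors, 10 of 27 rose and 13 fell, with a median difference of -0.25, against 31.8% of all genes higher and 28.1% lower. Besides Ccl24, the monocyte attractants of the Ccl2 group rose. Ccl8 read 13.37, 13.71 and 13.65 in IL-4+IL-10 macrophages against 8.27, 9.12 and 8.92 in IL-10 macrophages (28.0-fold), and Ccl7 read 11.88, 12.11 and 11.99 in IL-4+IL-10 macrophages against 7.92, 7.07 and 7.09 in IL-10 macrophages (24.8-fold). Ccl2 rose 8.26-fold and Ccl12 3.5-fold, though these related genes may share probe signal. Ccl17 and Ccl22, which draw T cells through the receptor Ccr4, differed by 3.09 and 2.10. The neutrophil attractant Cxcl2 and the interferon-induced Cxcl10 fell, with differences of -2.59 and -2.68. Ccr2, the receptor for Ccl2, read 8.75, 8.67 and 8.85 in IL-4+IL-10 macrophages and 11.14, 11.18 and 11.36 in IL-10 macrophages, 5.55-fold lower, so ligands and receptor moved apart.

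Sensors of microbial products and inflammatory mediators were mostly lower with IL-4. Of 28 Toll-like receptor and NF-kappaB genes tested, 22 fell and 2 rose (median difference -0.35), and of 23 classical inflammatory genes 16 fell and 5 rose (median -0.81), against 28.1% of all genes lower and 31.8% higher. Tlr2, the receptor for bacterial lipoproteins, read 6.87, 6.97 and 6.86 in IL-4+IL-10 macrophages and 9.97, 10.41 and 10.34 in IL-10 macrophages. Cd14, the co-receptor that presents lipopolysaccharide, was 6.65-fold lower, with 10.41, 10.66 and 10.45 in IL-4+IL-10 macrophages and 13.27, 13.22 and 13.23 in IL-10 macrophages. Nfkbiz, an atypical NF-kappaB inhibitor that sits in the nucleus, differed by -3.71 ± 0.0998 and Il1b, the cytokine IL-1 beta, by -3.22 ± 0.188. Tlr4, the lipopolysaccharide receptor, did not follow Tlr2 and was 1.18-fold higher. The NF-kappaB subunit Rel rose 1.71-fold. Acod1, which makes itaconate, rose 1.8-fold.

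The interferon list had 20 of 40 genes lower and 6 higher, against 28.1% of all genes lower and 31.8% higher. Its median was -0.35. The antiviral proteins Ifit1 and Ifit3 differed by -1.50 and -1.85. Usp18, which removes ISG15 and damps the type I interferon receptor, went against the list and rose 3.74-fold, with 9.12, 9.24 and 9.49 in IL-4+IL-10 macrophages and 7.36, 7.35 and 7.42 in IL-10 macrophages. The GTPase Gbp2 rose 2.25-fold. Without IL-4+IL-10 replicate 2, 3 genes of this list were called higher.

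Receptors for uptake and recognition fell more often than they rose. Of 32 scavenger, complement and Fc receptor genes, 20 were lower and 6 higher (median difference -0.48), against 28.1% and 31.8% of all genes. The C-type lectins of the Dectin-2 and Mincle group, which bind fungal and mycobacterial sugars and lipids, fell together. Clec4n (Dectin-2) read 6.94, 7.38 and 7.32 in IL-4+IL-10 macrophages and 10.14, 11.09 and 10.82 in IL-10 macrophages (11.1-fold lower), Clec4e (Mincle) was 9.86-fold lower and Clec4d 7.25-fold lower. The high-affinity IgG receptor Fcgr1 was 4.29-fold lower, while the inhibitory IgG receptor Fcgr2b was 1.63-fold higher, with 13.74, 13.73 and 13.82 in IL-4+IL-10 macrophages and 12.72, 13.29 and 13.15 in IL-10 macrophages. Axl, a receptor for the uptake of dying cells, was 2.32-fold lower.

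Integrins and inhibitory receptors showed 12 of 19 genes lower and 4 higher, against 28.1% and 31.8% of all genes, with a median of -0.70. The laminin-binding integrin chain Itga6 was 4.51-fold lower, with 10.16, 9.85 and 9.89 in IL-4+IL-10 macrophages and 12.20, 12.13 and 12.09 in IL-10 macrophages. The paired receptors Pilra and Pilrb1 differed by -1.91 and -2.40. Itgax, the integrin chain CD11c, rose 4.47-fold, with 11.97, 12.08 and 11.95 in IL-4+IL-10 macrophages and 10.09, 9.78 and 9.64 in IL-10 macrophages.

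Genes tied to macrophage fusion and to the matrix went both ways. Of 17 fusion genes, 9 rose and 5 fell, against 31.8% of all genes higher and 28.1% lower. E-cadherin (Cdh1), an adhesion protein that IL-4 is known to induce in mouse macrophages, read 9.04, 8.30 and 8.71 in IL-4+IL-10 macrophages against 3.94, 3.91 and 3.82 in IL-10 macrophages, and Ocstamp, a membrane protein needed for osteoclast fusion in mice, differed by 4.31. Among 29 matrix proteases and growth factors 13 rose and 8 fell, to be read against the same shares. The growth factor Hbegf, a ligand of the EGF receptor, read 9.80, 9.55 and 9.74 in IL-4+IL-10 macrophages and 6.36, 5.54 and 6.13 in IL-10 macrophages. Thrombospondin 1 (Thbs1) differed by -2.77 and the membrane protease Mmp14 was 3.45-fold lower.

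Of 22 genes of MHC class II presentation and costimulation, 6 rose and 6 fell, against 31.8% of all genes higher and 28.1% lower. Cd274, which encodes PD-L1, rose 2.54-fold beside the increase of Pdcd1lg2. The costimulator Cd86 differed by -1.16, Vsir, an inhibitory ligand, was 2.72-fold lower, and Tnfsf9, the ligand of 4-1BB, differed by -1.78.

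The cathepsins, proteases of the lysosome that macrophages also secrete, were the readout named in the title of the study. Of 16 genes for cathepsins and their inhibitors, 5 rose and 5 fell, with a median of -0.02, and both counts lie near the shares of all genes, 31.8% higher and 28.1% lower. Ctsb read 14.58, 14.55 and 14.57 in IL-4+IL-10 macrophages and 14.63, 14.61 and 14.60 in IL-10 macrophages (difference -0.04 ± 0.0367, adjusted p = 0.318), and Ctss read 14.49, 14.47 and 14.56 in IL-4+IL-10 macrophages and 14.51, 14.51 and 14.58 in IL-10 macrophages (adjusted p = 0.543). These levels lie near the top of the array's range, and of the other Ctsb probe sets 1 differed by -0.41 and another by -0.24, both called. Ctsl was 1.08-fold higher (adjusted p by limma = 0.0145). This call was lost on the 6 arrays alone (adjusted p = 0.1297) and with the replicate number as a block on them (0.06198). It was also lost without IL-4+IL-10 replicate 3 (0.08335), and without both arrays of replicate number 1 (0.06376) or 3 (0.1339). Ctsz, a carboxypeptidase, was 1.32-fold higher, with 14.32, 14.33 and 14.41 in IL-4+IL-10 macrophages and 13.89, 13.95 and 14.02 in IL-10 macrophages.

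Among the genes of the list that changed most, Ctsk, the collagen-degrading cathepsin of osteoclasts, rose 2.72-fold, with 10.53, 10.42 and 10.41 in IL-4+IL-10 macrophages and 9.05, 9.10 and 8.89 in IL-10 macrophages. Cst7, the inhibitor cystatin F, rose 4.23-fold. Ctsc, which activates serine proteases of granules, fell, with 11.91, 12.18 and 12.16 in IL-4+IL-10 macrophages against 13.79, 14.06 and 14.02 in IL-10 macrophages, 3.65-fold lower. Ctsh was 1.74-fold lower and Ctsf 1.52-fold lower. Of 44 other lysosomal genes, 16 rose and 12 fell, near the shares of all genes, 31.8% higher and 28.1% lower. The proton pump subunit Atp6v0a1 rose 2.99-fold and the phosphatase Acp5 3.26-fold, and the thioesterase Ppt1 was 2.1-fold lower.

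Genes for protein folding and export rose by modest amounts. The unfolded protein response adapts the endoplasmic reticulum to its load. Of 54 genes of its IRE1-XBP1 and ATF6 branches, 34 rose and 4 fell, against 31.8% and 28.1% of all genes. The median difference was 0.33. The disulfide isomerase Pdia4 rose 3.54-fold, with 11.74, 11.53 and 11.71 in IL-4+IL-10 macrophages and 10.00, 9.73 and 9.78 in IL-10 macrophages, and Wfs1, a membrane protein of the endoplasmic reticulum, rose 3.13-fold. Xbp1, Hspa5 and Atf6, known regulators of this response, were not called higher in the main fit. Hspa5 was called higher by the mean of its probe sets (adjusted p by limma = 0.04714), with array weights (0.02513) and without IL-4+IL-10 replicate 2 (0.01621). Xbp1 read 12.48, 12.43 and 12.54 in IL-4+IL-10 macrophages and 12.50, 12.52 and 12.60 in IL-10 macrophages (adjusted p = 0.402), the chaperone Hspa5 (BiP) differed by 0.08 (adjusted p = 0.109), and Atf6 was 2.03-fold lower. These probe sets measure total Xbp1 mRNA and do not tell its spliced form. The kinase gene Ern1, which encodes IRE1, did not pass the filter on low values and was not tested.

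In the PERK-ATF4 branch, which raises amino acid supply under stress, 22 of 28 genes rose and 0 fell. This stands against 31.8% and 28.1% of all genes, and the list's median was 0.61. By limma at an unadjusted p under 0.05 the count of genes that fell was also 0, and 1 was called lower without IL-10 replicate 1 and with the replicate block on the 6 arrays. Psat1, an enzyme of serine synthesis, rose 3.34-fold, with 10.36, 10.21 and 10.15 in IL-4+IL-10 macrophages and 8.98, 8.29 and 8.23 in IL-10 macrophages. The transcription factors Atf5 and Atf3 rose 2.92-fold and 2.26-fold. Of 46 genes of vesicle transport between the endoplasmic reticulum and the Golgi, 25 rose and 3 fell, against the same shares of all genes. The changes were small. The largest was Tmed3, a cargo receptor, at 1.48-fold, followed by Lman1 at 1.44-fold. Gosr1, a Golgi SNARE protein, was called lower by 0.16 on 1 probe set (adjusted p = 0.0071), while its other probe set was called higher by 0.49.

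Of 30 genes of cholesterol and fatty acid synthesis, 20 rose and 1 fell (median 0.29), against 31.8% and 28.1% of all genes. The desaturase Scd1 rose 3.93-fold, with a mean of 9.03 ± 0.075 in IL-4+IL-10 macrophages and 7.06 ± 0.09 in IL-10 macrophages (SD, n = 3 each). Its close relative Scd2 rose 3.18-fold and Mvd, an enzyme of the mevalonate pathway, 2.19-fold. Of 34 genes of lipid efflux and fatty acid oxidation, 18 rose and 5 fell, to be read against the same shares. Ch25h, which makes the signalling oxysterol 25-hydroxycholesterol, read 9.26, 8.89 and 9.10 in IL-4+IL-10 macrophages and 6.61, 6.55 and 6.42 in IL-10 macrophages. The coactivator Ppargc1b, known for mitochondrial biogenesis, rose 2.6-fold. The cholesterol carriers split: the exporter Abcg1 rose 1.87-fold, while Abca1 was 1.8-fold lower and apolipoprotein E (Apoe) 2.09-fold lower.

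Glycolysis and hypoxia genes had 12 of 26 lower and 4 higher, with a median difference of -0.13. Iron and haem genes had 14 of 25 lower and 6 higher, with a median of -0.25. Of all genes tested, 28.1% were lower and 31.8% higher. The glycolytic phosphofructokinase Pfkp rose 2.2-fold and the hypoxia-responsive glucose transporter Slc2a3 was 1.89-fold lower. In iron handling, the transferrin receptor Tfrc, which imports iron, rose 3.14-fold, with 12.75, 12.68 and 12.72 in IL-4+IL-10 macrophages and 11.25, 10.95 and 11.00 in IL-10 macrophages, opposite to the exporter Slc40a1. Hpgds, the haematopoietic prostaglandin D synthase, read 8.45, 8.24 and 8.19 in IL-4+IL-10 macrophages against 10.82 on each IL-10 array (5.75-fold lower).

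**Figure D2:**
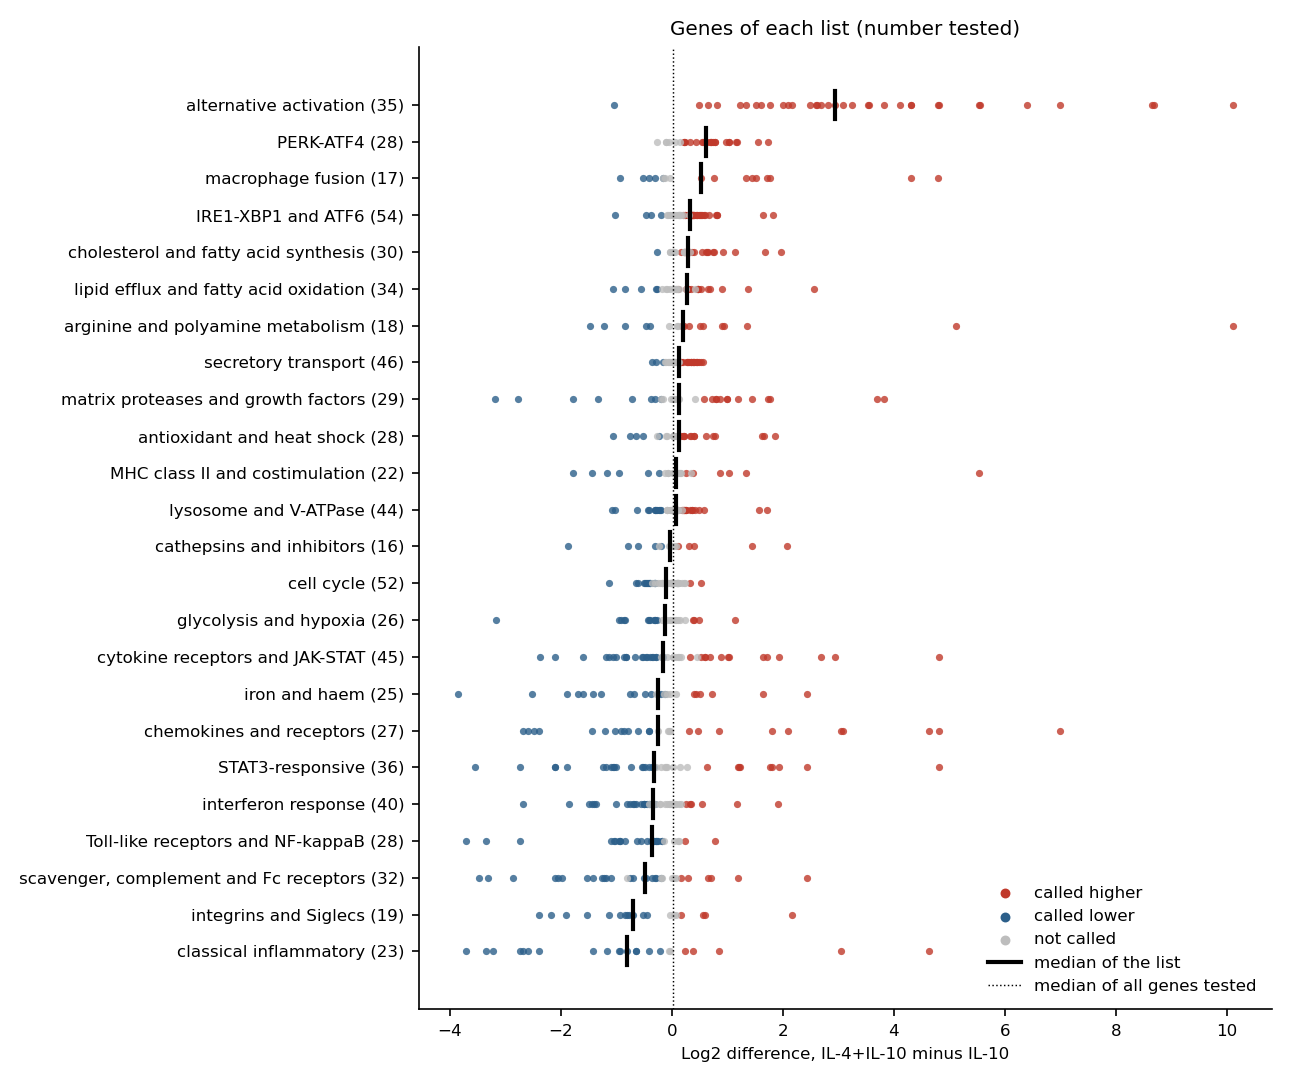
Log2 difference (IL-4+IL-10 minus IL-10, horizontal axis) of every gene tested in each of 24 lists (rows, with the number tested in brackets). Points are genes called higher (red), called lower (blue) or not called (grey), black bars are list medians, and the dotted line is the median of all genes tested, 0.02. Alternative activation has the highest list median, 2.94, and classical inflammatory genes the lowest, -0.81.

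Counts on the cell-cycle list moved with single arrays. Of 52 genes, 14 were called lower and 2 higher, against 28.1% of all genes lower and 31.8% higher. The share called lower thus lies near that of all genes, and the share called higher lies under it. The median difference was -0.36 for replicate number 1, against 0.03 and 0.01 for numbers 2 and 3. Top2a, a topoisomerase of dividing cells that was chosen after its values were seen, read 10.21, 9.94 and 9.97 in IL-4+IL-10 macrophages and 10.99, 10.22 and 10.22 in IL-10 macrophages, so IL-10 replicate 1 stood above the other arrays. Without IL-10 replicate 1, 10 genes of the list were higher and 4 lower, and without IL-4+IL-10 replicate 2, 8 were lower. The inhibitor Cdkn1b (p27) was lower on every array and did not share this pattern, with 9.46, 9.53 and 9.66 in IL-4+IL-10 macrophages and 10.52, 10.69 and 10.83 in IL-10 macrophages (2.19-fold lower). Cdkn1a (p21) rose 1.44-fold.

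**Figure D3:**
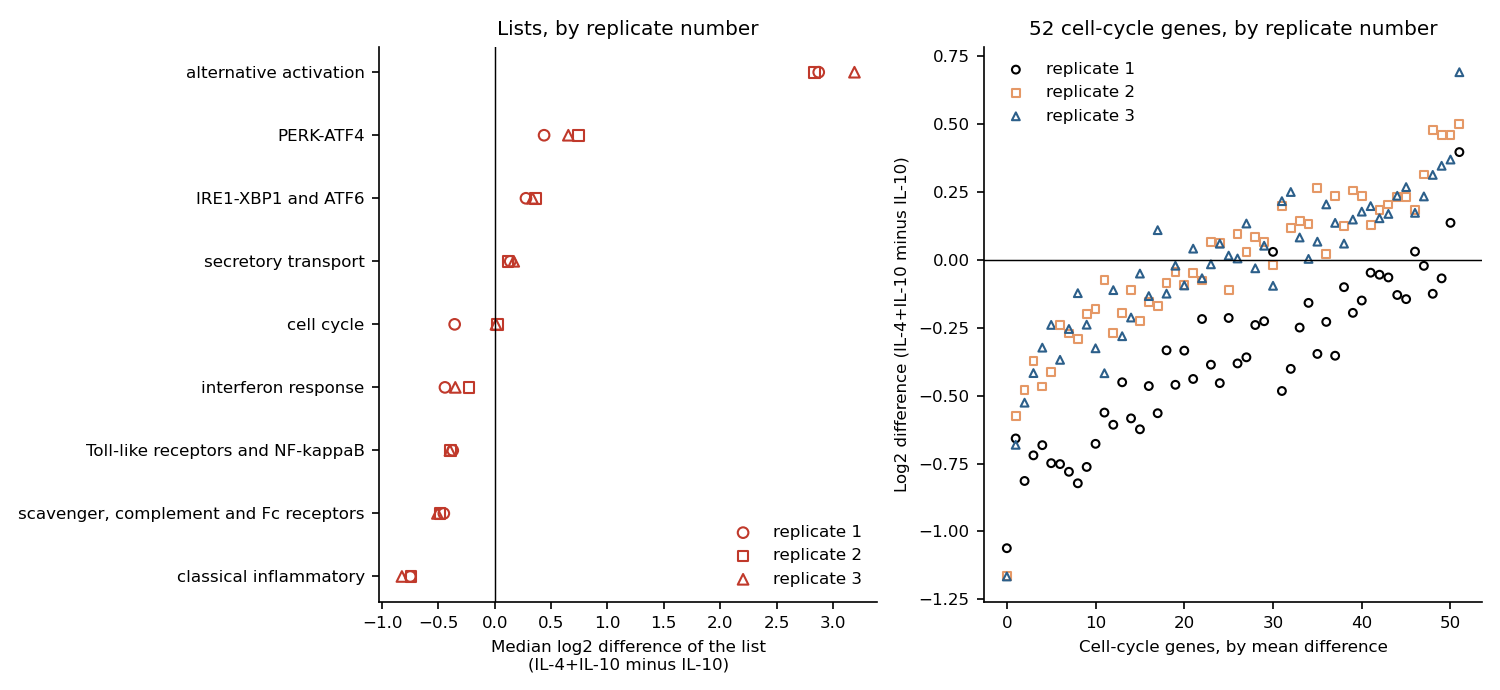
Left, the median log2 difference (IL-4+IL-10 minus IL-10, horizontal axis) of 9 lists, taken separately for replicate numbers 1 (circles), 2 (squares) and 3 (triangles). Right, the same differences for each of 52 cell-cycle genes in order of their mean difference. Most lists give like medians for the 3 numbers, while the cell-cycle median is -0.36 for number 1 and 0.03 and 0.01 for numbers 2 and 3.

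Whether IL-4 acted alike with and without IL-10 was tested as the difference of its effects, (IL-4+IL-10 minus IL-10) minus (IL-4 minus unstimulated), in which the 2 inner differences share no array. This was called for 1833 of 7154 genes (25.6%), 1108 positive (15.5%) and 725 negative (10.1%), and for 121 genes (1.69%) with a size of at least 1, 55 positive (0.769%) and 66 negative (0.923%). Of the 2277 genes called higher in IL-4+IL-10 macrophages, 1031 were also called higher for IL-4 alone with no called difference of effects, and of the 2007 called lower, 1169 were also called lower for IL-4 alone with none. Retnla was such a gene, with a difference of 8.65 with IL-10 present and 8.55 for IL-4 alone (difference of effects 0.11 ± 0.161, adjusted p = 0.666). Its means with IL-4, 14.68 and 14.56, lay near the highest value on any array (15.13). Those without IL-4, 6.03 and 6.01, lay under the median of all values. Like differences between such levels do not show that the effects were equal. Without IL-10 replicate 3 the positive calls fell to 719. The labels do not say which arrays were prepared together, and the IL-10 groups have 3 replicate numbers where the IL-4 group has 5. In the order of the samples, unstimulated replicates 6 to 8 stand among the IL-10 arrays. Replicates 1 to 5 stand among the IL-4 and IL-6 arrays. If the arrays were prepared in such sets, a difference in preparation and an influence of IL-10 on the IL-4 effect cannot be told apart. The same holds for the comparison with IL-6 below. With unstimulated replicates 1 to 5 as the only baseline 1794 genes were called, and with replicates 6 to 8 only 2458.

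A larger IL-4 effect in the presence of IL-10 was found for several of the most strongly induced genes. Arg1 averaged 13.85 in IL-4+IL-10 macrophages and 3.73 in IL-10 macrophages, and 11.58 in IL-4 macrophages and 3.83 in unstimulated macrophages, so the effects were 10.11 and 7.75 (difference 2.36 ± 0.132, adjusted p = 3.67e-13). For Ccl24 the effects were 6.99 with IL-10 and 3.63 without, for Pdcd1lg2 5.54 and 3.35, and for Ccl7 4.63 and 2.18. Ddx4 behaved alike, with 6.55 and 4.33. Prps1, which makes the phosphoribosyl donor of nucleotide synthesis, averaged 11.40 in IL-4+IL-10 macrophages against 8.55 in IL-10 macrophages, and 9.18 in IL-4 macrophages against 8.51 in unstimulated macrophages. Bex1, a small adaptor protein known from neurons, had effects of 4.64 and 1.59. Cystm1, a small membrane protein, moved in opposite directions, up by 1.91 with IL-10 and with a difference of -0.24 for IL-4 alone. Ccl8 was outside the rule for naming genes here, since its IL-4 and unstimulated levels both lay under 6.99, and was chosen after its values were seen: its effects were 4.81 and 0.77.

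For other genes the IL-4 effect was more negative when IL-10 was present. Lifr, the receptor for leukaemia inhibitory factor, averaged 6.90 in IL-4+IL-10 macrophages and 9.69 in IL-10 macrophages, and 7.23 in IL-4 macrophages and 7.58 in unstimulated macrophages, with effects of -2.79 and -0.36. Saa3 had effects of -3.54 and -1.18, F13a1 of -3.19 and -0.78, Il1b of -3.22 and -1.20, and Ccr2 of -2.47 and -0.47. Socs3 had effects of -2.10 and -0.51 (difference -1.59 ± 0.187), although its IL-4 and unstimulated levels, 5.98 and 6.49, lay under the median of all values. Slamf9, a receptor of the SLAM family, changed direction: it averaged 9.72 in IL-4+IL-10 macrophages against 11.04 in IL-10 macrophages, and 11.08 in IL-4 macrophages against 10.20 in unstimulated macrophages. Fcrls, an Fc receptor-like protein, had effects of -0.24, which was not called (adjusted p = 0.178), and 1.72. Cysltr1, a leukotriene receptor, had effects of -1.97 and -0.12. In all, 121 genes were called in opposite directions with a called difference, 76 higher with IL-10 present and lower for IL-4 alone, and 45 the other way round.

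**Figure D4:**
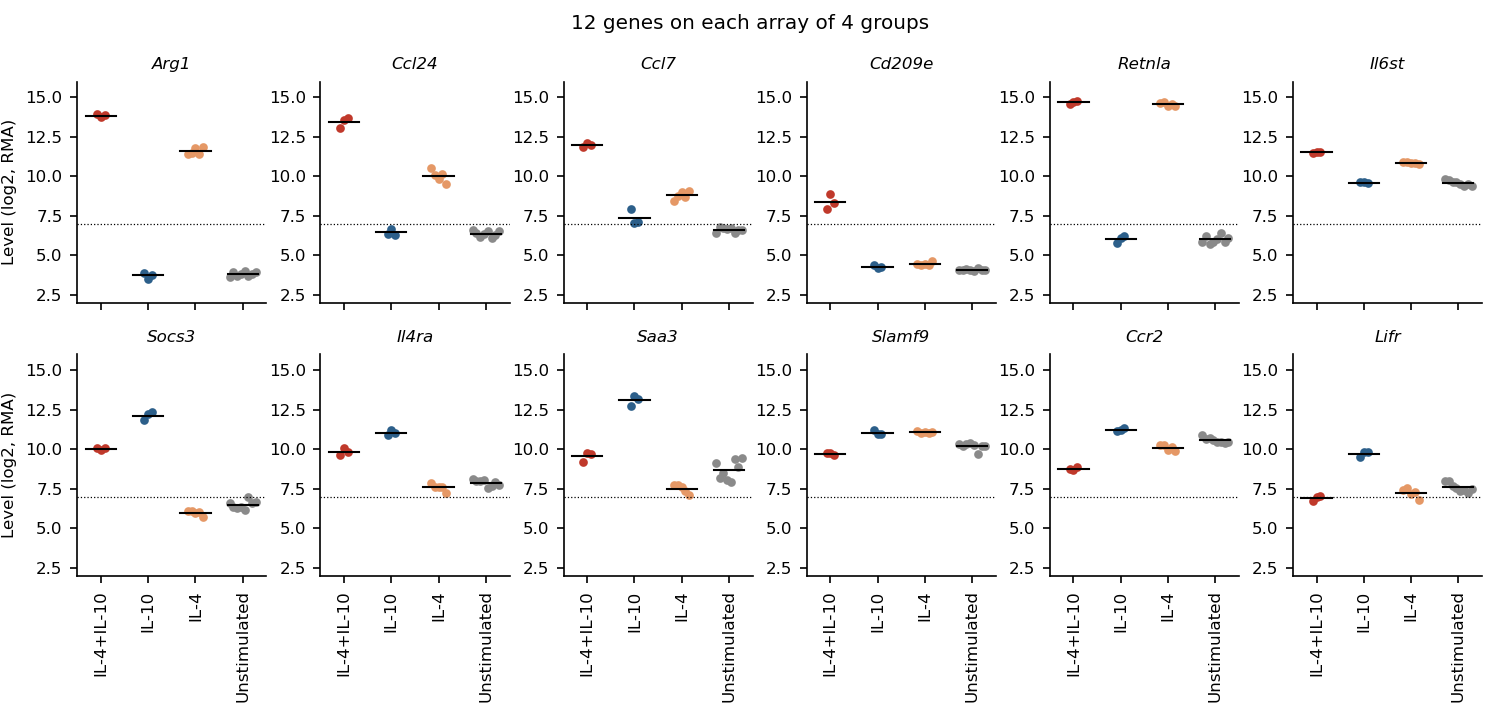
Levels (log2, RMA) of 12 genes on every array of IL-4+IL-10 (red), IL-10 (blue), IL-4 (orange) and unstimulated (grey) macrophages. Points are arrays, bars are group means and the dotted line is the median of all values, 6.99. Arg1 reaches 13.85 with IL-4+IL-10 and 11.58 with IL-4, while Retnla reaches 14.68 and 14.56.

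By list, the difference of effects was positive for 12 and negative for 0 of 28 PERK-ATF4 genes, positive for 8 and negative for 0 of 30 cholesterol and fatty acid synthesis genes, and positive for 13 and negative for 1 of 46 vesicle transport genes. It was positive for 0 and negative for 8 of 28 Toll-like receptor and NF-kappaB genes, against 15.5% positive and 10.1% negative over all genes. By limma at an unadjusted p under 0.05 the counts of 0 were 0 for PERK-ATF4, 1 for cholesterol and fatty acid synthesis and 0 for the Toll-like receptor and NF-kappaB list. Among cathepsins and inhibitors it was positive for 8 and negative for 2 of 16. Ctsk had effects of 1.44 with IL-10 and 0.54 without, and Ctsc of -1.87 and -0.64. Ctsl had 0.12 with IL-10 and -0.18 without (difference 0.29, adjusted p = 5.7e-05). Ctsb and Ctss showed no called difference (adjusted p = 0.82 and 0.36).

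**Figure D5:**
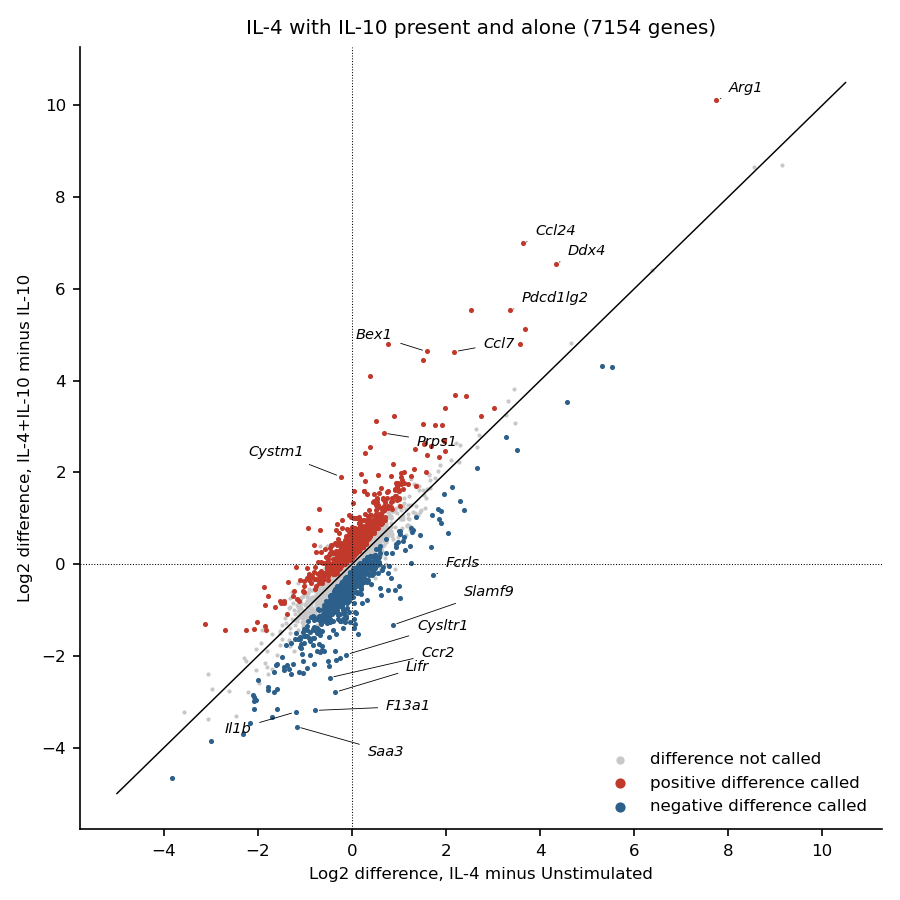
Log2 difference of each of 7154 genes for IL-4 added to IL-10 (vertical axis) and for IL-4 against unstimulated macrophages (horizontal axis). The line marks equal effects, red points have a called positive and blue points a called negative difference of effects, and grey points have none; the 16 named genes are labelled. Arg1 lies at 10.11 and 7.75, above the line, and Saa3 at -3.54 and -1.18, below it.

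The same question can be put with IL-6, another cytokine that signals through STAT3, in place of IL-10: (IL-4+IL-10 minus IL-10) minus (IL-4+IL-6 minus IL-6). It was called for 939 genes (13.1%), 497 positive (6.95%) and 442 negative (6.18%), and for 43 (0.601%) with a size of at least 1, 11 positive (0.154%) and 32 negative (0.447%). Without IL-10 replicate 3 the positive calls fell to 329. Arg1, Retnla and Ccl24 showed no called difference (adjusted p = 0.513, 0.884 and 0.121). Irf4, in contrast, had an effect of 3.24 with IL-10 and 1.15 with IL-6 (difference 2.09 ± 0.3, adjusted p = 1.96e-05). Axl fell with both, with effects of -1.21 and -2.58, as did Rgs2, which shortens signals of G-protein-coupled receptors, with -0.64 and -1.63. Scd1 had 1.97 and 0.80, and the granzyme B inhibitor relative Serpinb9b 2.34 and 1.13. Ramp1, a partner of the calcitonin receptor-like receptor, had -0.64 and -2.06, Cd24a, a surface glycoprotein, 1.38 and 0.13, and Bex1 4.64 and 3.18. Bex1 lost its call without IL-10 replicate 3, with a difference of 1.21 (adjusted p = 0.0853).

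On the STAT3-responsive list the difference was negative for 11 and positive for 2 of 36 genes, against 6.18% negative and 6.95% positive over all genes. Several genes rose less beside IL-10 than beside IL-6. Cd209a had effects of 1.60 with IL-10 and 4.08 with IL-6, Cd209e of 4.11 and 6.38, Cd163 of 2.43 and 4.20, and Ccl12 of 1.81 and 3.52. Socs3 had a larger effect beside IL-10, at -2.10, than beside IL-6, at -0.32 (difference -1.78 ± 0.194), averaging 10.03 in IL-4+IL-10 macrophages against 12.13 in IL-10 macrophages, and 11.11 in IL-4+IL-6 macrophages against 11.44 in IL-6 macrophages. Il4ra moved in opposite directions, with -1.19 beside IL-10 and 0.57 beside IL-6 (difference -1.75 ± 0.178, adjusted p = 9.77e-08). Ednrb, the endothelin B receptor, also did so, with -0.74 and 1.32. Gja1, the gap junction protein connexin 43, had 0.14 with IL-10, which was not called (adjusted p = 0.523), and 2.37 with IL-6.

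All 18 macrophage markers on the array lay above the median of all values in both groups. Of the 18, 15 were lower in IL-4+IL-10 macrophages and 0 higher (1 by limma at an unadjusted p under 0.05). Over all genes tested, 28.1% were lower and 31.8% higher. The summed level of the markers on the linear scale was 134273 to 148319 in IL-4+IL-10 macrophages and 188238 to 195856 in IL-10 macrophages. In RNA of a whole culture, fewer cells of a type and less RNA per cell cannot be told apart. Of 13 dendritic cell markers 7 lay above the median in IL-4+IL-10 macrophages and 3 in IL-10 macrophages, and the defining genes Flt3, Zbtb46 and Xcr1 lay under it. Of the other marker lists, 6 and 7 of 13 neutrophil markers lay above the median, 5 of 12 of erythroid cells and megakaryocytes, 2 of 21 of lymphocytes and NK cells, 1 of 18 of mast cells, basophils and eosinophils, and 0 of 18 of fibroblasts. Signals of 3' minus 5' probe sets for Actb grow as RNA is degraded. They were 0.44, 0.377 and 0.441 in IL-4+IL-10 macrophages and 0.31, 0.363 and 0.353 in IL-10 macrophages. Unstimulated replicates 6 to 8 read 0.504, 0.366 and 0.453, and replicates 1 to 5 lay between 0.309 and 0.329. The part of these signals in the results was not tested. Array medians lay between 6.945 and 7.035, and correlations between arrays were at least 0.9927 within IL-4+IL-10, at least 0.991 within IL-10 and 0.9177 to 0.9314 between the groups.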

How the data were processed

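RNA (75 ng per sample) was hybridised to Affymetrix 3' arrays of 22690 probe sets. The deposited log2 values were made by the authors with RMA, a method with background correction, quantile normalization and a summary of each probe set as a single log2 value. RMA and GCOS 1.4 are named per the submitters' processing notes, without the role of GCOS or the version of RMA. No values were normalized again.

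The platform annotation gave exactly 1 gene to 20393 probe sets, several genes to 691 (not used) and none to 1606. Each gene was represented by its probe set of highest mean level. Genes with at least 3 arrays above the median of all values (6.99) were tested, 7154 of 12394.

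All 29 arrays were fitted by group with limma 3.58.1 in R 4.3.3 (lmFit, eBayes, two-sided, Benjamini-Hochberg over the genes tested, called at an adjusted p under 0.05), after the same code was tested on simulated data. A fold is given only where both group means lie above the median. Counts on lists come with the median difference and no set test. The members and the gene lists were chosen with earlier results of these data known.

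Genes are named by a rule. It takes, each way, the 12 called genes that changed most, provided that the groups do not overlap and that the replicate differences have 1 sign, up to 3 each way per list under the same conditions, and the 8 largest each way for each difference of effects. Arg1, Socs3, Il4ra, Stat6, Stat3, Ctsz, Ctss, Ctsl, Ctsb, Hspa5, Xbp1 and Ern1 are always taken, and not every gene taken is printed. Top2a was chosen after its values were seen.

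Replicate numbers pair the arrays: deviations from the group means of same-numbered arrays correlated at 0.596, 0.637 and 0.776, and those of differently numbered arrays at -0.0661 at most. Deviations from a group mean cancel out within the group, so the low values for different numbers are no separate evidence. The pairing comes from the labels' numbers and the correlations of same-numbered arrays. The fit without the block is the main one, since the block leaves the differences of a balanced comparison as they are. Alternatives were other scalings, filters, probe set rules, variance models, thresholds and baselines, the replicate block, and leaving out each array. Leaving out both arrays of a replicate number was added after seeing the data.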

Additional observations from a re-analysis of the deposited data

Results flagged for a closer look

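Genes whose IL-4 effect differed by test between cells with and without IL-10 are given by the difference of effects, log2, with IL-10 minus without. The largest positive values were 3.362 for Ccl24, 3.051 for Bex1, 2.457 for Ccl7, 2.359 for Arg1, 2.222 for Ddx4, 2.187 for Pdcd1lg2, 2.186 for Prps1 and 2.151 for Cystm1. The largest negative values were -2.435 for Lifr, -2.404 for F13a1, -2.365 for Saa3, -2.197 for Slamf9, -2.022 for Il1b, -2.002 for Ccr2, -1.965 for Fcrls and -1.848 for Cysltr1. All 16 kept their call with each array left out and with either set of unstimulated replicates as the baseline. Between those baselines the values of Bex1 and Saa3 differed most of the 16, with 3.391 and -2.694 for replicates 1 to 5 against 2.486 and -1.817 for replicates 6 to 8.

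Genes whose IL-4 effect differed by test between cells with IL-10 and cells with IL-6 are given in the same way. The largest positive values were 2.092 for Irf4, 1.453 for Bex1, 1.419 for Ramp1, 1.363 for Axl, 1.244 for Cd24a, 1.214 for Serpinb9b, 1.171 for Scd1 and 1.003 for Rgs2. The largest negative values were -2.472 for Cd209a, -2.279 for Cd209e, -2.224 for Gja1, -2.068 for Ednrb, -1.783 for Socs3, -1.77 for Cd163, -1.752 for Il4ra and -1.715 for Ccl12. Bex1 lost its call without IL-10 replicate 3 (1.213, adjusted p by limma = 0.0853), and the other 15 kept theirs with each array left out.

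Among these genes, single arrays stood apart from the rest of their group in 6 of 64 tests by Dixon's ratio, the gap to the nearest array over the group's range, of which chance gives about 1 in 20. The ratio was 0.573 for Cystm1 on unstimulated replicate 5, 0.689 for Slamf9 on unstimulated replicate 6 and 0.747 for Il4ra on IL-4+IL-6 replicate 1. IL-6 replicate 5 stood apart for Gja1 (0.963), Scd1 (0.74) and Il4ra (0.712). With each array left out, the difference between IL-10 and IL-6 stayed between -2.386 and -2.103 for Gja1, between 1.107 and 1.232 for Scd1 and between -1.879 and -1.651 for Il4ra.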

How the results depend on the processing

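Of the settings tried for the named genes, 2853 left direction and call as they were, 33 lost a call (10 genes, among them Stat6, Ctsl, Gosr1 and Itgb2), 4 gained one (Ctsb and Hspa5) and 1 reversed: Gosr1 by the mean of its probe sets, at 0.165845, since its probe sets oppose each other. The comparison called 4284 genes, against 2844 (1317 lower) with a filter at the 75th percentile, where fewer genes were tested, and 6433 (3023 lower) with every probe set by itself, where more were. Requiring an absolute difference of at least 1 left 469 (219 higher, 250 lower), and for the differences of effects 121 (55 positive, 66 negative) without IL-10 and 43 (11 and 32) with IL-6. At an adjusted p of 0.01 these were 1033 (586 and 447) and 514 (255 and 259). Leaving out 1 array gave 719 to 1190 positive differences without IL-10 and 329 to 676 with IL-6, both lowest without IL-10 replicate 3; the cause was not tested. The replicate block called 4805 genes on the 6 arrays (2548 higher, 2257 lower) and 4393 on all arrays; it changed the call of Ctsl, given with the cathepsins, and of no other gene named by the rule. Without the block the 6 arrays alone called 3880. Background can set much of the readings under the median of all values, where 75 called genes have both group means and 284 have 1. Levels near 15.13 limit differences at the top.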

Other observations

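Of 28 antioxidant and heat shock genes, 14 rose and 5 fell, against 31.8% of all genes higher and 28.1% lower. The inducible chaperone Hspa1b read 9.29, 8.81 and 9.69 in IL-4+IL-10 macrophages and 7.55, 6.87 and 7.80 in IL-10 macrophages, 3.62-fold higher. Hspa1a, nearly identical in sequence, differed by 1.67, and the co-chaperone Hsph1 rose 3.1-fold, with 11.00, 10.78 and 10.89 in IL-4+IL-10 macrophages and 9.45, 9.17 and 9.15 in IL-10 macrophages. Of the 5 that fell, glutathione reductase (Gsr) was 2.09-fold lower, the superoxide dismutase Sod1 1.69-fold and Sod2 1.57-fold lower.

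Blood-lineage genes also moved. Von Willebrand factor (Vwf), a clotting protein of endothelium and platelets, read 9.95, 10.13 and 10.01 in IL-4+IL-10 macrophages and 8.12, 8.08 and 7.94 in IL-10 macrophages, 3.96-fold higher. Platelet factor 4 (Pf4) was 2.03-fold lower in the same cells, so these platelet genes moved in opposite directions. The summed linear level of the erythroid and megakaryocyte markers was 5549.75 to 6230.5 in IL-4+IL-10 macrophages and 8686.26 to 9437.41 in IL-10 macrophages. Pf4 had the highest level of these markers, with means of 11.82 and 12.84, so the sums largely repeat its decrease. The erythroid markers Hba-a1, Klf1, Gata1, Epor and Alas2 lay under the median of all values in both groups. The part of such cells in the values was not tested. Derl1, a channel protein of the endoplasmic reticulum, was 1.37-fold lower on the probe set that stood for it, while the differences of its other probe sets ran from -0.21 to 0.05.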
